A study of Mus musculus with 4 samples.

Results

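Binding of NKX2.2, a homeodomain protein of the pancreatic islet, was examined at 9 genes that encode the transcription factors of the pancreatic endocrine lineage: Neurog3, Neurod1, Insm1, Rfx6, Pax4, Pax6, Isl1, Myt1 and St18. Chromatin immunoprecipitation followed by sequencing (ChIP-seq) enriches the DNA that a factor occupies, and unenriched input DNA serves as the control. The cells were alphaTC6, a wild-type mouse line of the glucagon-producing alpha cell. The study has 2 NKX2.2 ChIP and 2 input samples, and the deposited outcome is 1 list of 7384 peak summits, each the base of highest enrichment in a called peak. For every one of the 9 genes, the summits in the gene or within 10, 50 and 100 kb of it were taken, which gave 32 of the 7380 summits on the assembled chromosomes. The list holds no value per sample, so no value below has a replicate error, no difference was tested, and the read depth is unknown. It holds no expression values either, so the alpha cell label could not be checked against marker genes.

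NKX2.2 is best known in the islet for shaping which endocrine cell types form and for keeping them distinct, acting at many of its targets as a repressor. In the developing pancreas a short pulse of Neurog3 commits progenitors to the endocrine fate, and Neurod1, Insm1, Rfx6, Pax4, Pax6, Isl1 and the Myt family act during or after that step. Several of them, such as Pax6, Isl1 and Neurod1, stay on in mature islet cells. alphaTC6 is a transformed line grown in culture, so it shows an alpha cell state and not the progenitor in which Neurog3 normally acts.

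Of the 9 genes, 5 had a summit inside them or at most 10 kb away: Neurod1, Pax6, Isl1, Myt1 and St18. Among all 21887 protein-coding genes the corresponding percentage was 25.8%. Neurog3, Insm1, Rfx6 and Pax4 had none at this distance. With 50 kb allowed, 8 of the 9 genes had a summit, against 43.8% of protein-coding genes, and the same 8 had one within 100 kb, against 55.3%. Rfx6 was the gene without a summit at any of these distances. On the 5 chromosomes that hold the 9 genes, the share of protein-coding genes with a summit at most 10 kb away was 33.6% (chromosome 1, St18), 27.4% (chromosome 2, Neurod1, Insm1, Pax6 and Myt1), 34.2% (chromosome 6, Pax4), 30.7% (chromosome 10, Neurog3 and Rfx6) and 23.0% (chromosome 13, Isl1). A summit inside the gene itself was found at 3 of the 9, Pax6, Isl1 and St18, against 13.4% of protein-coding genes.

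The 32 summits fell into 2 sets by distance. All 15 summits in or within 10 kb had the named gene as their nearest protein-coding gene. All 17 summits farther out lay closer to some other protein-coding gene, and 13 of these 17 lay inside one. In the whole list, 3966 of the 7380 placed summits lay inside a protein-coding gene. Counting only summits that have the gene as their nearest, 5 of the 9 genes had one at each of the 3 distances, against 19.2%, 21.0% and 21.7% of protein-coding genes. Close to the edges of the windows, the farthest summit inside 10 kb lay 6.72 kb from Pax6 and the first one outside it lay 17.2 kb from Insm1. At the next edge, a summit lay 48.5 kb from Neurog3 and another 53.6 kb from Neurod1, and at the outer edge the values were 87.8 kb for Myt1 and 121.5 kb for Insm1.

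**Figure D1:**
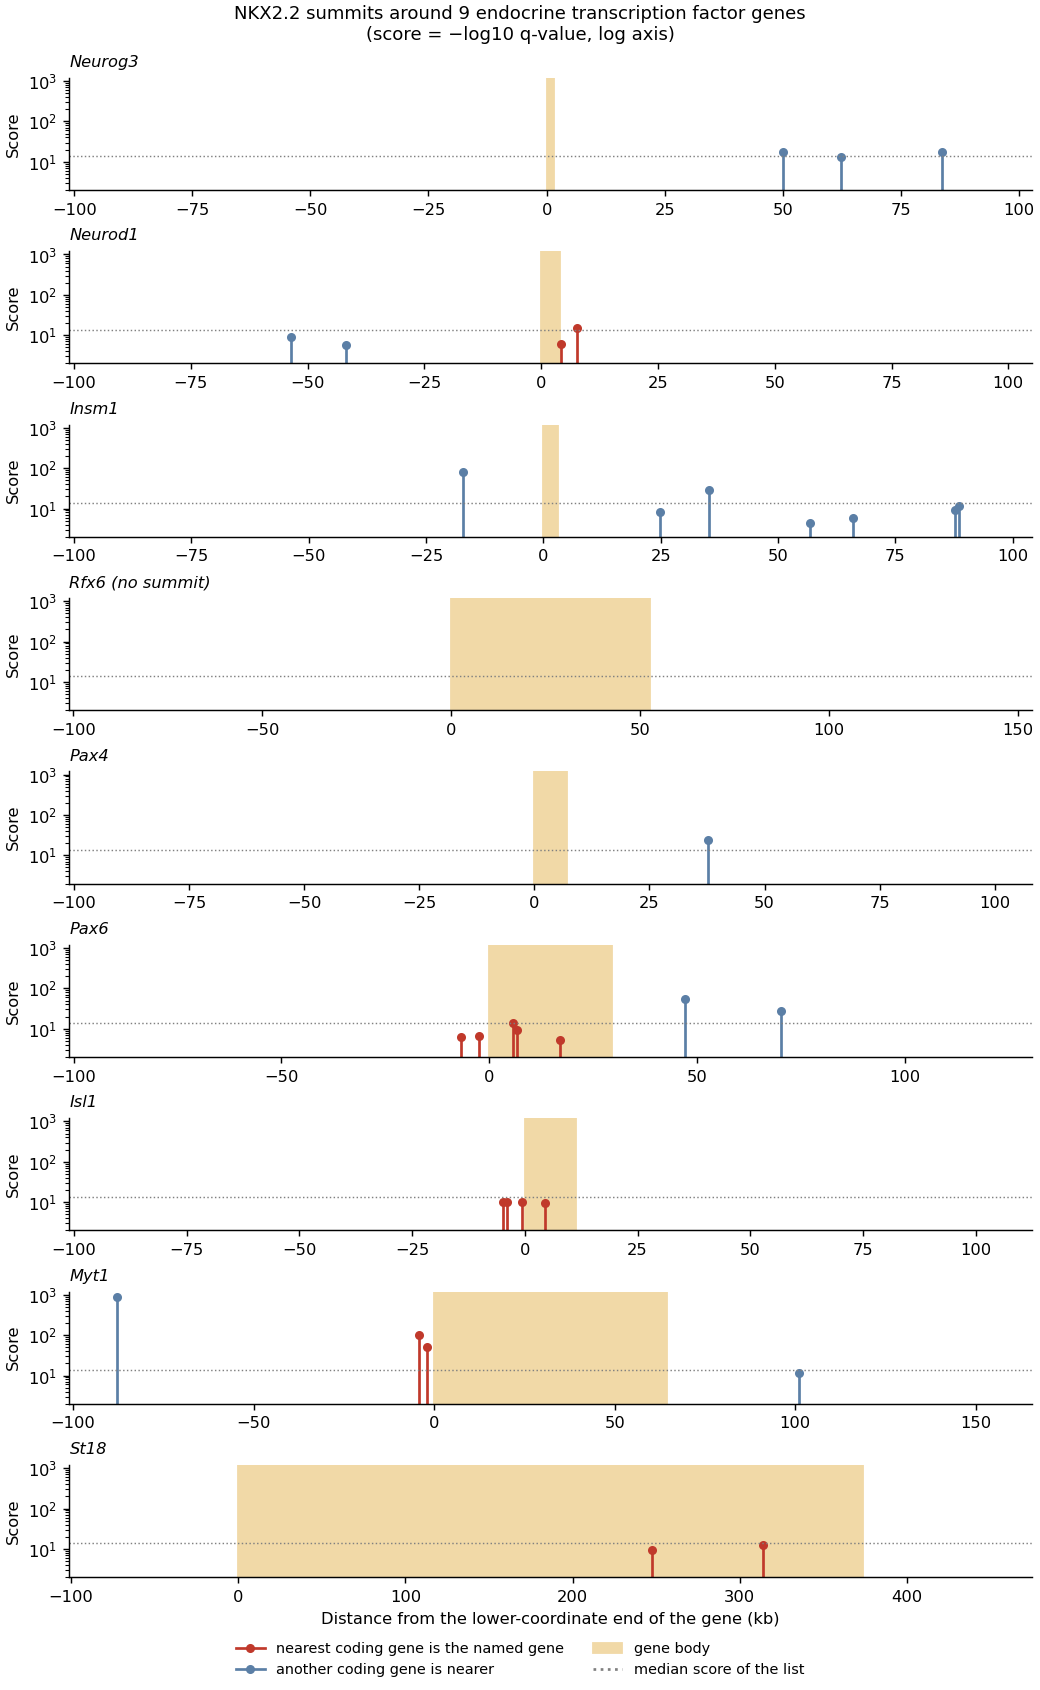
Each panel shows 1 gene, with the distance from its lower-coordinate end in kb on the x axis. The height of each line is the deposited score of the summit, taken as the −log10 q-value (log axis). Red summits, 15 in all, have the named gene as nearest protein-coding gene, and the 17 blue ones lie nearer to another; the panel of Rfx6 is empty.

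Scores are the deposited values, taken as the authors' −log10 q-values of ChIP against input. Ranks are counted from the highest of the 7380 placed summits. In the whole list the median score was 13.7, and the middle 50% ran from 7.98 to 27.7. Positions are in mouse build mm10 (GRCm38), counted from 1. Exons, introns and UTRs were not distinguished.

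Neurog3 (gene ID 11925, chromosome 10, 62133090 to 62134763) encodes the basic helix-loop-helix factor that starts the endocrine programme. Its nearest summit lay 48.5 kb downstream, at position 62183235, with a score of 17.8 and rank 2898. That summit was 2.16 kb from Tspan15, which encodes a membrane protein of the tetraspanin family. The 2 others in the 100 kb window, at 62195510 (score 12.8) and 62216800 (score 17.7), lay inside Tspan15. No summit was called on the upstream side until 350.2 kb away, so all 3 summits within 100 kb lay to one side of Neurog3 and closer to Tspan15.

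Neurod1 (gene ID 18012, chromosome 2, 79452637 to 79456636, minus strand) encodes a helix-loop-helix factor that acts after Neurog3 and is retained in islet cells. It had 2 summits of its own, both upstream. The one at 79456814 lay 178 bp before the transcription start and had a score of 6.03, rank 6292, which is below the lower quartile of the list. The one at 79460332 lay 3696 bp before the start and had a score of 14.8, rank 3453. Thus the summit at the start was the lower of the pair. A further 2 summits, at 79410805 (score 5.73) and 79399026 (score 8.91), lay downstream inside Cerkl, a gene known for its role in retinal degeneration.

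The Neurod1 summit nearest the start was the only one of the 32 that fell in the 250 bases before a listed transcription start of these genes. RefSeq starts (GRCm38.p6) were listed for 6 of the 9 genes, Neurod1, Pax6, Myt1, Rfx6, Neurog3 and Isl1, with 9 start windows in all. Over the whole table, 1336 of 32851 such windows, 4.07%, held a summit. The Neurod1 window is shown because it holds a summit. It is chr2:79456637-79456886, minus strand, written 5′ to 3′ with the letters CACCC, the core read by KLF factors such as KLF4, or its reverse complement GGGTG in capitals.
Neurod1 start window: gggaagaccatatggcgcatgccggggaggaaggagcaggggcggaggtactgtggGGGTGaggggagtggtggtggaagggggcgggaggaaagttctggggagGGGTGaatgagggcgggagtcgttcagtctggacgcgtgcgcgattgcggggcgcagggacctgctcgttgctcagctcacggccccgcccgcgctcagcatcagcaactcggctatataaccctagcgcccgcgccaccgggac

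The summit is base 73 of this window. GGGTG was found at 2 places, at bases 57 to 61 and 106 to 110, which is 12 and 33 bases from the summit. CACCC on either strand occurs in 52.0% of all start windows and in 57.3% of the 1336 windows with a summit. Among the windows of the 9 genes that hold no summit, Rfx6 had 2 matches. Isl1, Neurog3 and the last listed start of Myt1 had 1 each. The NKX2 core AAGTG was absent from the Neurod1 window on both strands. AAGTG occurs in 40.7% of all start windows and in 38.8% of the 1336 windows with a summit. An E-box (CANNTG, the element bound by helix-loop-helix factors) was present once, at bases 9 to 14. E-boxes occur in 66.2% of all start windows and in 54.3% of those with a summit. A match of letters is a description and does not show binding.

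Among the 9 windows, AAGTG was found in 1, at the second listed start of Pax6, where no summit was called in the window. It is shown for contrast as chr2:105682213-105682462, plus strand, with AAGTG in capitals. The longer form TNAAGTG, present in 10.1% of all start windows, was in none of the 9.
Pax6 second start window: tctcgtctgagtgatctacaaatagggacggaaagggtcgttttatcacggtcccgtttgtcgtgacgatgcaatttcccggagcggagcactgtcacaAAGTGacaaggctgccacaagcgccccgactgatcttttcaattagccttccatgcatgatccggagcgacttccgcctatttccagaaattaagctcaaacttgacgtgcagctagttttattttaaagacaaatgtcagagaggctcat

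Insm1 (gene ID 53626, chromosome 2, 146221997 to 146225020) encodes a zinc-finger factor needed for endocrine differentiation. No summit lay in or within 10 kb of it, but 7 lay within 100 kb, a number reached by 1.67% of protein-coding genes. With a score minimum of 10, 3 of these 7 remained. One was at 146204824, 17.2 kb on the lower-coordinate side, inside Cfap61, a gene for a cilia- and flagella-associated protein. Its score of 80.9, rank 473, was the highest around Insm1. The other 6 lay on the other side, 21.8 to 85.5 kb away, and all 6 were inside Ralgapa2, which encodes a subunit of a Ral GTPase-activating complex. Their scores were 8.43, 28.3, 4.28, 5.72, 9.19 and 11.7 in order of distance from Insm1, so 1 of the 6 exceeded the median of the list. The high number around Insm1 was therefore a count of summits inside both of its neighbours.

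Rfx6 (gene ID 320995, chromosome 10, 51677760 to 51730429) encodes a winged-helix factor required for islet cell formation. The nearest summits lay 779.6 kb on the lower-coordinate side, inside Sim1, with a score of 13.1, and 1050 kb on the other side, inside Slc35f1, with a score of 4.45. A nearest summit at least as far away was found for 13.4% of protein-coding genes. The interval between these summits was 1.88 Mb, and 3.75% of the 7360 intervals between neighbouring summits in the list were as wide. Without the read coverage this shows only that no peak was called there.

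Pax4 (gene ID 18506, chromosome 6, 28442334 to 28449340) encodes a paired-homeodomain factor that favours the beta and delta cell fates. It had 1 summit within 100 kb, at 28480110, 30.8 kb away, with a score of 24.2 and rank 2150. This summit lay 227 bp from Snd1, which encodes a nuclease-domain protein. In the other direction the next summit was 3825 kb away, and the empty interval of 3.86 Mb that holds Pax4 was matched or exceeded by 81 of the 7360 intervals, 1.10%. Pax4 and Rfx6 thus lay in the widest empty intervals of the 9 genes.

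Pax6 (gene ID 18508, chromosome 2, 105668896 to 105698410, plus strand) encodes the paired-homeodomain factor needed for alpha cell formation and glucagon gene transcription. It had the most summits of its own, 5 in or within 10 kb, a number reached by 0.334% of protein-coding genes. This held without a score minimum: at a minimum of 10, Pax6 had 1 summit within 10 kb and 3 within 100 kb, and Myt1 had 2 within 10 kb. A pair lay upstream, at 105662178 and 105666539, which is 6718 and 2357 bp before the first start, with scores of 6.15 and 6.79. Both of these lay inside Pax6os1, a long noncoding RNA gene on the antisense side of Pax6. Inside Pax6 were summits at 105674622 (score 13.7), 105675527 (score 9.53) and 105685929 (score 5.24). The first of them lay 5726 bp past the first listed start and 905 bp from the second of them, and the last lay 3466 bp past the second listed start.

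The scores of the 5 summits at Pax6 were low, with the highest at rank 3701 and 3 below the lower quartile of the list. Farther out, 2 summits downstream had higher scores. They were at 105715900, 17.5 kb past the end of Pax6, with a score of 53.9 and rank 801, and at 105739067, 40.7 kb past it, with a score of 26.8 and rank 1900. Both lay inside Elp4, the neighbouring gene for a subunit of the Elongator complex. Introns of Elp4 are known to hold distant regulatory elements of Pax6; whether these summits fall in such elements was not tested. All 7 summits in the 100 kb window together were a number reached by 1.67% of protein-coding genes.

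Isl1 (gene ID 16392, chromosome 13, 116298270 to 116309688, minus strand) encodes a LIM-homeodomain factor needed for islet cell maturation. It had 4 summits within 10 kb, a number reached by 0.745% of protein-coding genes, and none further in the 100 kb window. At a score minimum of 10, 1 of the 4 remained. One lay inside the gene at 116302642, 7046 bp past the start, with a score of 9.61. The other 3 lay past the end of the gene, at 116297666 (604 bp, score 9.81), 116294339 (3931 bp, score 10.2) and 116293387 (4883 bp, score 9.88). The 4 summits covered 9.26 kb, and their scores spanned 0.551, a range that holds 207 summits, 2.80% of the list. On the upstream side the next summit was 911.03 kb away, and no other protein-coding gene reached into the 100 kb window.

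**Figure D2:**
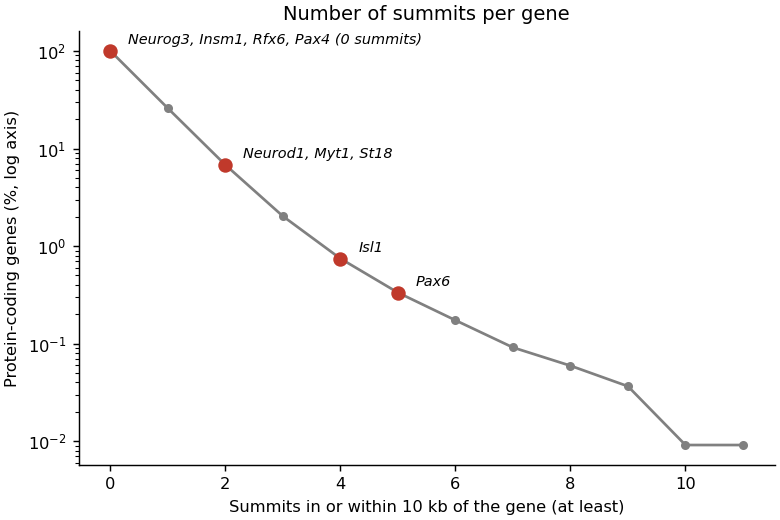
The share of protein-coding genes (percent, log axis) with at least the number of summits on the x axis in or within 10 kb is drawn in grey, and the 9 genes are marked in red. Pax6 with 5 summits and Isl1 with 4 lie where 0.334% and 0.745% of genes remain; Neurod1, Myt1 and St18 have 2, a number reached by 6.79%.

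Myt1 (gene ID 17932, chromosome 2, 181763332 to 181827775, plus strand) encodes a zinc-finger factor that promotes endocrine differentiation. Its own 2 summits were both upstream and were the highest of all 15 in the group. The summit at 181759225, 4107 bp before the first start, had a score of 103.1 and rank 362, and the one at 181761408, 1924 bp before it, had a score of 52.01 and rank 846. A score as high as 103.1 in or within 10 kb was found for 1.58% of protein-coding genes. None of the 64.4 kb of the gene body held a summit.

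A summit of far higher score lay 87.8 kb upstream of Myt1, at 181675580, with a score of 875.6 and rank 8 of the list. Its nearest protein-coding gene was Sox18, at 3.94 kb, which encodes a factor of blood and lymphatic vessel development, and 7 other protein-coding genes reached into the 100 kb window. The fourth summit, at 181864342 (score 11.8), lay 36.6 kb past the end of Myt1 but 18 bp from Polr3k, a gene for an RNA polymerase III subunit.

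St18 (gene ID 240690, chromosome 1, 6487231 to 6860940), also of the Myt zinc-finger family, had 2 summits, both inside the gene. They were at 6734746 and 6800928, 66.2 kb apart, with scores of 9.55 and 12.6. At 373.7 kb St18 was by far the longest of the 9 genes, and 1.82% of protein-coding genes are as long. Per 100 kb of the gene and its 10 kb flanks, St18 had 0.508 summits, against 2.37 at Myt1, 8.33 at Neurod1, 10.1 at Pax6 and 12.7 at Isl1. The same count of 2 at Myt1, Neurod1 and St18 thus came from windows of 84.4, 24.0 and 393.7 kb.

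By the highest score in or within 10 kb, the order was Myt1 (103.1), Neurod1 (14.8), Pax6 (13.7), St18 (12.6) and Isl1 (10.2). As high a score within 10 kb was found for 1.58%, 13.8%, 14.6%, 15.6% and 18.1% of protein-coding genes. In the whole list Pax6 and Isl1 had the most summits within 10 kb and Myt1 the highest scores. With a score minimum of 10 this order of counts turned, as Myt1 had 2 summits within 10 kb and Pax6, Isl1, Neurod1 and St18 had 1 each. The last 4 genes of this order lie close to each other, and no error is known with which to separate them.

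The 15 summits in or within 10 kb had a median score of 9.81, against 13.5 for the 5674 summits in or within 10 kb of any protein-coding gene. Of these 15, 3 exceeded the median of the whole list, the pair at Myt1 and the farther one at Neurod1. The 6 summits inside Pax6, Isl1 and St18 had scores from 5.24 to 13.7, all below that median. Of the 9 summits at 10 to 50 kb, 6 exceeded it, and their median was 24.2. The 8 summits at 50 to 100 kb had a median of 10.4, and 2 of them exceeded the median of the list, the summit near Sox18 and 1 inside Tspan15.

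**Figure D3:**
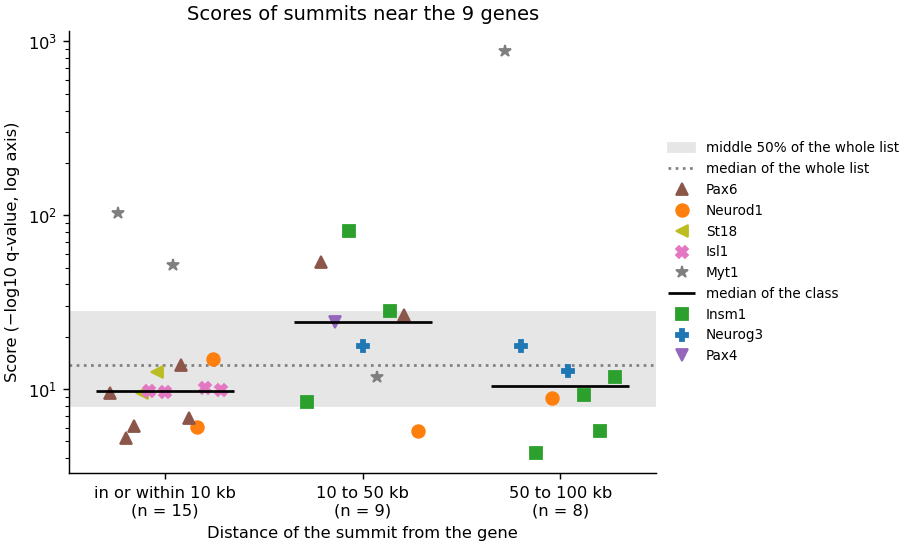
Scores (taken as −log10 q-values, log axis) of the 32 summits are plotted by distance class, with 1 symbol per gene. Black bars mark the class medians of 9.81, 24.2 and 10.4. The grey band is the middle 50% of the whole list, and the Myt1 summits are the only ones above it in the class nearest the genes.

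Pax6 and Isl1 each had a pair of summits of their own at most 1 kb apart. The share of all protein-coding genes with such a pair was not counted, and the shares below are of summits. Another summit lay within 1 kb of 6 of the 32, 18.8%, against 3.20% of the whole list, and within 10 kb of 16, against 21.1%. The 3 pairs were at Pax6 (905 bp apart), at Isl1 (952 bp) and inside Ralgapa2, 84.6 kb from Insm1 (906 bp). Because genes with several summits add more members to the count, these shares describe the loci and were not tested.

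The same windows were then counted for related genes, from lists chosen with results of these data known. Of 29 other islet transcription factor genes, 14 had a summit in or within 10 kb, 19 within 50 kb and 20 within 100 kb. The highest scores within 10 kb belonged to Mlxipl (160.8), a glucose-responsive factor, Pdx1 (118.6), a master gene of the pancreas and beta cell, Nkx2-2 itself (51.4) and Irx2 (19.7), an alpha cell factor. Of 31 genes from the same families as the 9, 11 had a summit in or within 10 kb, 12 within 50 kb and 14 within 100 kb. Among all protein-coding genes the shares at these distances were 25.8%, 43.8% and 55.3%. The highest were at Rfx2 (197.6), Lhx4 (109.2), Rfx1 (98.2), Neurod2 (87.5) and Pax3 (54.2). The top summits of Mlxipl, Pdx1, Lhx4 and Neurod2 lay 9378, 5984, 4321 and 4851 bp from the gene. Those of Nkx2-2, Irx2, Rfx2, Rfx1 and Pax3 lay inside the gene. Whether another gene lay nearer to the summits outside was not examined.

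The family relatives were thus at 35.5%, 38.7% and 45.2% for the 3 distances, against 25.8%, 43.8% and 55.3% of all protein-coding genes. The relatives lay above that share at 10 kb and below it at 50 and 100 kb. The other islet factors were at 48.3%, 65.5% and 69.0%, and the 9 lineage factors at 55.6%, 88.9% and 88.9%. The lists of relatives and of other islet factors share Lmx1a and Lmx1b, and Lmx1b, with a summit within 10 kb, counted in each. With 9 genes, 1 gene moves the share by 11.1 percentage points, and the difference between the lists was not tested. Of the 7 RFX relatives of Rfx6, 3 had a summit within 10 kb, Rfx1 and Rfx2 with 2 each and Rfx4 with 1. The other 4, Rfx3, Rfx5, Rfx7 and Rfx8, had none at that distance, as Rfx6 had none. Neurog1 and Neurog2 had none within 100 kb. Rfx3, Rfx4, Rfx5, Rfx7, Rfx8, Neurog1, Neurog2, Lmx1a and Lmx1b were named after their values were seen.

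**Figure D4:**
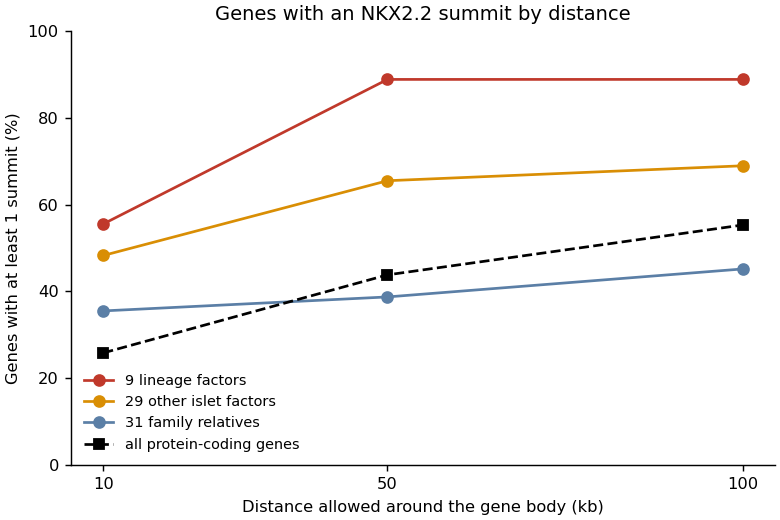
The percentage of genes with at least 1 summit is plotted against the distance allowed around the gene body (10, 50 and 100 kb) for the 9 lineage factors, 29 other islet factors, 31 family relatives and all protein-coding genes. The lineage factors rise from 55.6% to 88.9% between 10 and 50 kb, and all protein-coding genes from 25.8% to 43.8%.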

How the data were processed

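NKX2.2 ChIP and input libraries of alphaTC6 cells were grouped by the sample titles. Bowtie2 and MACS2 are named, with build mm10, in the submitters' processing notes; versions and any pooling of replicates are not given in the sources used here. The deposited value of each peak is taken as the −log10 q-value that MACS2 writes, since all values exceed the limit that a q-value of 0.01 gives. Each summit position is the BED start plus 1. The 4 summits on unassembled contigs were left out.

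Distances to gene bodies used a RefSeq gene table of GRCm38.p6, the assembly behind mm10, and starts and upstream sequence a RefSeq start table. Background shares cover 21887 protein-coding genes. Motifs were searched in the 250 bases before each start, on both strands. All 9 genes are named, with the nearest protein-coding gene of each of their summits and at most 5 genes per related list by highest score within 10 kb; 1 gene that this rule names is not reported here. The genes and lists were chosen with earlier results of these data known. Score minimums of 5 and 10, merging within 500 bp and other distance rules were tried. Counting was tested on simulated data: 200 planted summits gave 0 mismatches. Python 3.11.15, numpy 2.4.6 and pandas 2.3.3 were used.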

Additional observations from a re-analysis of the deposited data

How the results depend on the processing

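The 5 genes with a summit in or within 10 kb, and the 8 within 50 and 100 kb, were counted again. Score minimums of 5 and 10, and merging summits within 500 bp, gave the same counts. No share of all protein-coding genes is given for these settings or for distance to a start. Whether the counts changed relative to that background is therefore not known. A minimum of 10 left 17 of the 32 summits, with a median score of 17.8, and 6 of the 15 summits whose nearest protein-coding gene was the named one. In the whole list, 64.5% of the placed summits scored at least 10.16 and 65.6% at least 9.88, so the share reaching 10 lies between these values. At that minimum 1 summit remained within 10 kb of Pax6, Isl1, Neurod1 and St18 each, and 2 of Myt1. Within 100 kb, 3 of 7 summits remained at Insm1, 3 of 7 at Pax6, 1 of 4 at Isl1, 1 of 4 at Neurod1 and 1 of 2 at St18. When only summits nearest to the named gene counted, 5 genes had one within 50 kb and 5 within 100 kb. With distance taken from a listed transcription start, which 6 genes have, 4 genes had a summit within 10 kb, 4 within 50 kb and 5 within 100 kb. Insm1, Pax4 and St18 drop out of these counts because no start was listed, and Neurog3 moved past 50 kb, from 48472 bp to its gene body to 50145 bp to its start. The planned count of NKX2 motifs around summits was not run, because no genome sequence was used here. No paired analysis was possible because replicates have no values of their own in the summit list, and leaving one out was not possible either. Depth is unknown, so a gene without a summit shows only that no peak was called.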
